A study of Mus musculus with 48 samples.

Results

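Mouse kidneys collected at circadian time 20 (CT20, late in the subjective night) were compared between animals labelled D-Ala, given D-alanine, and animals labelled Vehicle. The comparison rests on 8 of the 48 libraries of the series, 4 per treatment, chosen by labelled time and treatment and not by any measured value. The labels give all animals as WT (wild type) and give neither dose, route, strain, sex nor age. The series covers 6 times, 4 h apart, with 4 libraries in each of 12 groups, and its text speaks of kidneys of different mice and of an experiment done 2 times. Values were deposited as 2 tables, with 24 libraries apiece, and each CT20 group has its replicates 1 and 2 in the first table and its replicates 3 and 4 in the second. Taking the tables as the 2 runs of the experiment is an inference. The limma p-values rest on the spread within the 12 groups over all 48 libraries.

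D-alanine and L-alanine are mirror images of each other, and proteins are built from the L form. In the kidney, D-amino acids are broken down by D-amino acid oxidase, a peroxisomal enzyme of the proximal tubule, a segment that also makes glucose from lactate, glutamine and other precursors. Circadian clocks run on a loop in which the activators ARNTL (BMAL1) and CLOCK switch on the Per and Cry genes, whose products repress those activators, while REV-ERB and ROR receptors set the level of Arntl. Some targets of the activators were low at CT20: in vehicle, Dbp, a clock output transcription factor, averaged 2.77 ± 0.631 (SD, n = 4) FPKM against 93.3 at CT8, and Ciart, a clock repressor, 0.7405 ± 0.374 (SD, n = 4) against 12.6. FPKM, a fragment count per length of exon and per size of library, scales each count to gene length and library total. Differences below are D-alanine minus vehicle on the log2(FPKM + 1) scale, given with the SE of the fit, and values of single libraries are FPKM levels in the order of replicates 1 to 4.

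Several CT20 libraries stood apart from the other CT20 libraries in the levels of cell type markers. Aqp2, the vasopressin-regulated water channel of principal cells, was at 897 FPKM in vehicle replicate 1 and 1114 in D-alanine replicate 2, and at 77.4 to 328 in the other 6. The summed level of 6 markers of the inner medullary collecting duct was 250 and 437 in those libraries and 41.5 to 112 in the other 6. The sum of 5 B lymphocyte markers was 222 in D-alanine replicate 3 and 4.48 to 16.4 in the other 7, nearly all of it from Ighm, the immunoglobulin mu heavy chain, at 213. That library also had the highest sums of 7 macrophage and dendritic markers (502, the others 175 to 244), of 6 T and NK lymphocyte markers (14.6, the others at most 4.26) and of 6 fibroblast markers (47.8, the others 17.4 to 30.9). Adipocyte marker sums were 50.9 in D-alanine replicate 4 and 30.7 in D-alanine replicate 2, against 7.48 to 20.4 in the other 6. Over all 48 libraries of the series the inner medullary sum reached 950 and the adipocyte sum 86.5. The B lymphocyte, macrophage and dendritic, T and NK lymphocyte and fibroblast sums of D-alanine replicate 3 were the highest of the 48. Markers of proximal tubule segments 1 and 2 summed to 1949 to 2540 in vehicle and 1797 to 2676 with D-alanine, so the labelled tissue had its defining genes in each library. In tissue libraries, fewer cells of a type and less RNA per cell cannot be told apart. Depth was 10835590 to 13322250 fragments per CT20 library.

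**Figure D1:**
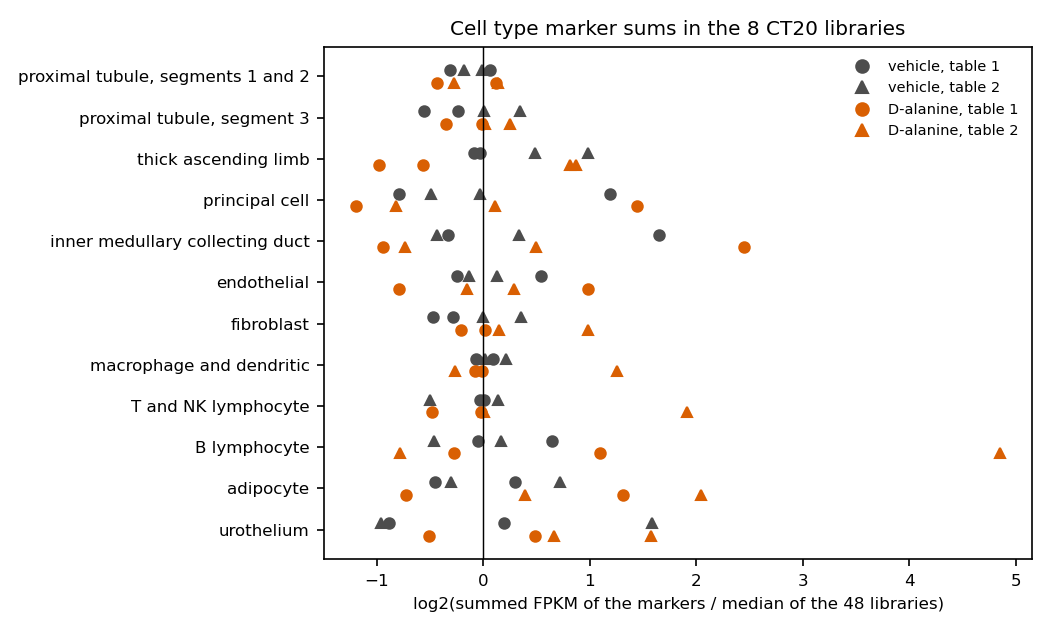
Summed FPKM of cell type markers in each CT20 library, as log2 of the ratio to the median over all 48 libraries; circles are replicates 1 and 2 (first table), triangles replicates 3 and 4 (second table). The inner medullary collecting duct is highest in 2 circles, 1 of each treatment, and B lymphocytes in 1 D-alanine triangle.

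Across the transcriptome no gene passed the test at CT20. Of 14922 genes tested with limma, 0 were higher and 0 lower with D-alanine at an adjusted p under 0.05 (0.0%), and the smallest adjusted p was 0.435. At an unadjusted p under 0.05 there were 384 genes (2.57%), of which 300 were higher with D-alanine (2.01%) and 84 lower (0.563%). limma voom on recovered fragments also called 0, with 346 at an unadjusted p under 0.05. With the 8 CT20 libraries fitted alone limma called 0 and left 273 genes at that unadjusted p; that of Zbtb16 went from 0.00128 to 0.0449 and that of Gsta3 from 0.00183 to 0.0627. The treatments did not overlap over the 8 libraries for 115 genes (0.771%), 90 higher and 25 lower with D-alanine. For 410 genes (2.75%) they were apart in the same direction within each table, 316 higher and 94 lower. The median difference over all genes was 0.0377, and 63.3% of genes lay above 0, but that share was 69.8% after rescaling to TPM and 41.7% after rescaling without the mitochondrial genes. In the same fit 166 genes were higher and 4 lower at CT0, and none in either direction at CT4, CT8, CT12 or CT16.

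The smallest p belonged to Plk3, a polo-like kinase known from stress and cell cycle checkpoint responses (GRCm38, chromosome 4, 117128655 to 117133963, minus strand). Among vehicle libraries it was at 4.65 and 4.67 in the first table, then 2.26 and 2.48 in the second. Among D-alanine libraries it was at 11.9 and 9.72, then 4.595 and 5.602. Within each table both D-alanine libraries were above both vehicle libraries, while over all 8 the lowest D-alanine library lay just below 2 vehicle libraries. The difference was 0.95 ± 0.20 (SE), 1.05 in the first table and 0.85 in the second, and did not pass the threshold (limma, unadjusted p = 2.92e-05, adjusted p = 0.435). These levels rest on 62 to 132 fragments per vehicle library and 132 to 401 per D-alanine library. Over 23 other settings the difference stayed between 0.82 and 1.15 and the adjusted p between 0.174 and 1.0. Exons of Plk3 overlap those of Tctex1d4, and without strand the fragments of the pair cannot be told apart.

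Plk3 also varied with time. In vehicle its mean was highest at CT12, 5.99, and was 3.51 ± 1.33 (SD, n = 4) at CT20. With D-alanine it was 8.22 at CT12, 3.78 at CT16 and 7.95 ± 3.43 (SD, n = 4) at CT20. Averaged over the other 5 times the treatment difference was 0.14, so that at CT20 exceeded it by 0.82 (limma, unadjusted p = 0.000662, adjusted p = 0.999). Plk3 was picked by its CT20 difference, which is part of this contrast, so the unadjusted p is not independent of that choice.

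**Figure D2:**
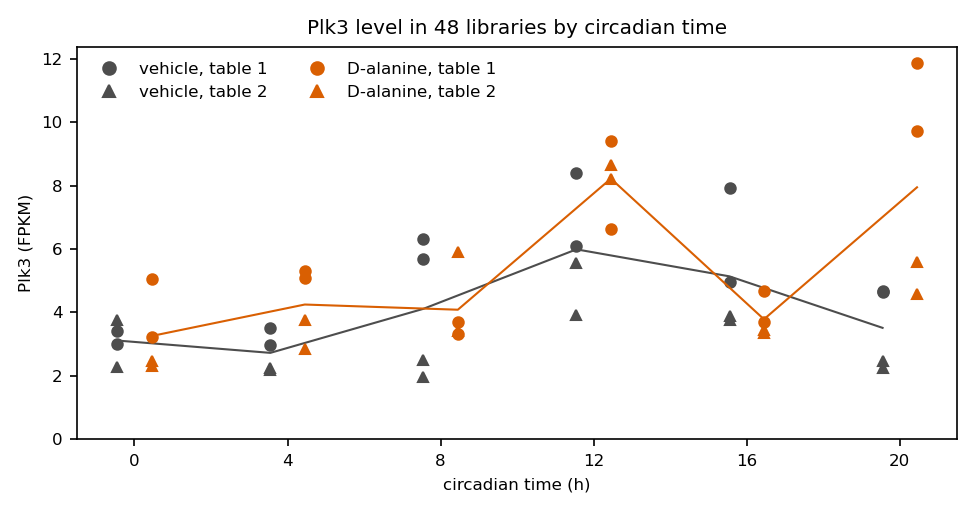
Plk3 level (FPKM) in all 48 libraries against circadian time (h); lines join group means, circles are the first table and triangles the second. At CT20 both D-alanine libraries of each table lie above both vehicle libraries of the same table.

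The 250 bases before the annotated start of Plk3 are printed because this gene ranked first (RefSeq, GRCm38.p6, chr4:117133964-117134213, minus strand, 5′ to 3′ along the gene). Capitals mark TGACG, the core of the cyclic-AMP response element, searched on both strands.
Plk3: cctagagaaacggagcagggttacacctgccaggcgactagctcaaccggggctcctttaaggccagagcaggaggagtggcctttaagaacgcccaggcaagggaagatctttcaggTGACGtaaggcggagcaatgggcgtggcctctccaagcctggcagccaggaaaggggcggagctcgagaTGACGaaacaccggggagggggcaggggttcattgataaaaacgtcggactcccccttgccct
The core lies 132 and 63 bases before the start. Of 32851 annotated promoters of the same length, 17.8% hold it. The match describes letters only and was looked for after the values were seen.

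Next by p among genes higher with D-alanine came Clec3b, Zbtb16, Armc12, Gsta3, Snord70, March2, Mak16, Tstd2 and Tmem37, none past the threshold. Clec3b, which encodes the secreted protein tetranectin, was at 0.456, 0.271, 0.279 and 1.01 in vehicle and 0.983, 2.699, 5.68 and 1.62 with D-alanine. It was apart within each table and highest in D-alanine replicate 3, the library with the highest fibroblast and lymphocyte sums. Its difference was 1.19 ± 0.34, and 0.80 without that library; the part of those cells in it was not tested.

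Zbtb16, the glucocorticoid-inducible transcription factor PLZF, was at 0.411, 0.254, 0.541 and 0.269 in vehicle and 0.398, 1.65, 0.701 and 2.17 with D-alanine. Replicates 2 and 4 with D-alanine were high, and these libraries also had the highest adipocyte sums, whose part in the result was not tested. The difference was 0.63 ± 0.18. Armc12, an armadillo repeat gene, was at 1.25, 1.82, 1.28 and 0.154 in vehicle and 3.602, 2.16, 2.604 and 2.07 with D-alanine. Mak16, whose product takes part in ribosome assembly, was at 10.95, 9.67, 9.06 and 10.4 against 12.6, 11.7, 13.5 and 11.02, and Tstd2 was at 6.16, 8.5, 8.46 and 5.71 against 11.2, 8.59, 8.56 and 14.4. None of these 3 overlapped between treatments (0.771% of all genes did not), with differences of 0.82 ± 0.24, 0.26 ± 0.08 and 0.50 ± 0.16. They were named for small p in the same comparison, so the lack of overlap is not separate evidence. The nearest values were close, at 10.95 against 11.02 for Mak16 and 8.5 against 8.56 for Tstd2. For Armc12 the difference was 0.53 without vehicle replicate 4, its lowest library.

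Gsta3, a glutathione S-transferase of detoxification, was at 11.9, 11.1, 22.5 and 29.4 in vehicle and 25.5, 18.1, 24.5 and 28.2 with D-alanine. Its difference of 0.44 ± 0.13 came from 0.85 in the first table and 0.03 in the second. Tmem37, a membrane protein gene, was at 32.9, 40.1, 41.1 and 40.5 in vehicle and 63.4, 40.9, 68.6 and 67.3 with D-alanine, where replicate 2 lay in the vehicle range. March2, a membrane-bound ubiquitin ligase gene whose exons overlap Hnrnpm, was at 8.77, 10.1, 11.8 and 12.1 against 10.7, 11.1, 14.5 and 14.2, apart within each table. Snord70, a small nucleolar RNA, was at 0 in all 4 vehicle libraries and rested on 3, 0, 2 and 1 fragments with D-alanine, so no fold is given.

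**Figure D3:**
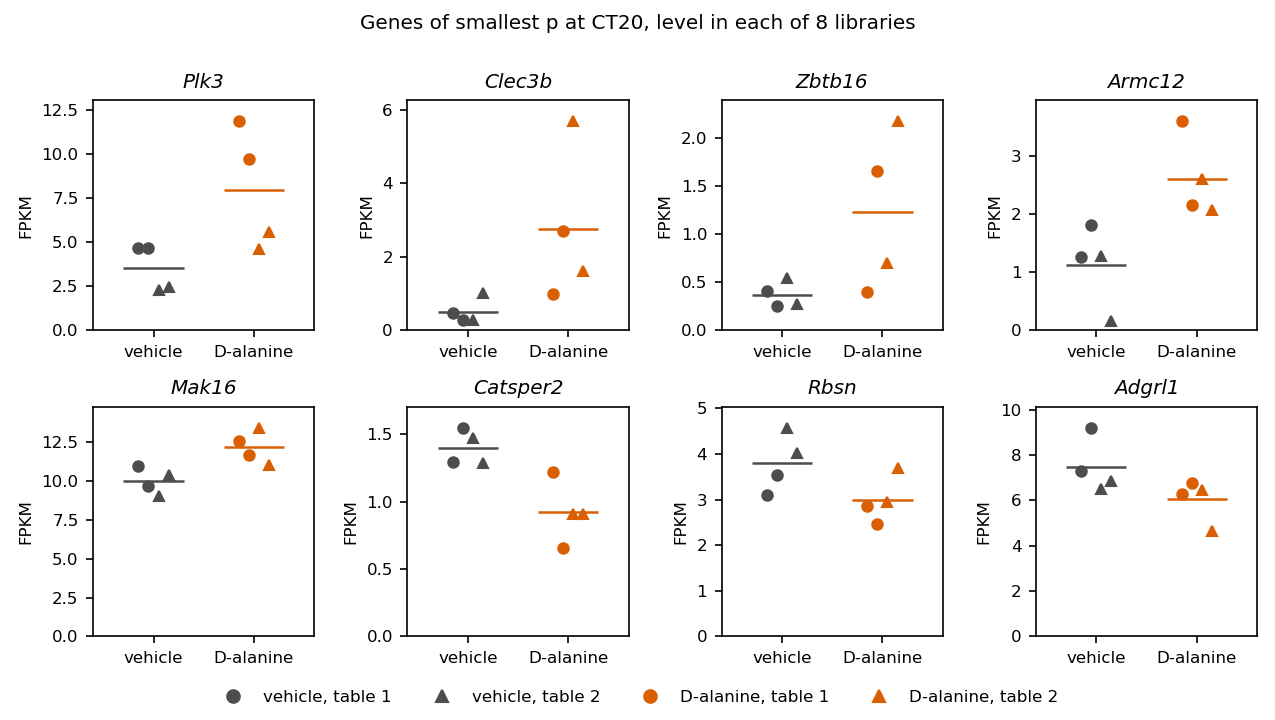
FPKM of 8 genes of small p in each CT20 library, with lines at the group means; circles are the first table and triangles the second. Armc12, Mak16 and Catsper2 do not overlap between treatments, and Plk3 is apart only within each table.

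Lower with D-alanine, the genes of smallest p were Catsper2, Lrrc66, Mir5136, Tyw3, Mir8091, mt-Nd5, Defb2, Rbsn, Snora23 and Adgrl1, again none past the threshold. Catsper2, known as a sperm calcium channel subunit, was at 1.298, 1.55, 1.47 and 1.29 in vehicle and 1.22, 0.657, 0.906 and 0.911 with D-alanine. The groups did not overlap (0.771% of all genes did not), and the difference was -0.33 ± 0.11. Exons of Catsper2 overlap those of Pdia3. Lrrc66, a leucine-rich repeat gene, was at 6.34, 5.47, 5.35 and 6.27 in vehicle and 2.73, 3.98, 5.61 and 2.35 with D-alanine, where replicate 3 lay in the vehicle range. Tyw3, a tRNA-modifying enzyme gene whose exons overlap Cryz, was at 5.01, 8.32, 10.99 and 9.25 against 4.39, 3.83, 6.37 and 6.53. Rbsn, which encodes the endosomal RAB5 effector rabenosyn-5, was at 3.101, 3.54, 4.58 and 4.02 against 2.85, 2.46, 2.94 and 3.69. Adgrl1, the adhesion receptor latrophilin 1, was at 7.29, 9.203, 6.497 and 6.86 against 6.26, 6.75, 6.46 and 4.66. These last 3 were apart within each table (2.75% of all genes were), at -0.56 ± 0.21, -0.27 ± 0.11 and -0.27 ± 0.11.

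Defb2, Mir5136, Mir8091 and Snora23 rested on few fragments. Defb2, a beta-defensin gene, had 7, 6, 7 and 8 fragments in vehicle and 0, 4, 7 and 3 with D-alanine, and its difference was -0.45 without D-alanine replicate 1. Mir5136 had 0, 4, 5 and 5 against 0, 0, 1 and 0. Mir8091 had 0, 0, 4 and 4 and the small nucleolar RNA Snora23 had 4, 1, 0 and 1 in vehicle, with all 4 D-alanine libraries of both at 0. These libraries were made for mRNA, and entries of miRNA genes measure no mature miRNA.

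Whether CT20 differed from the rest of the day was asked by setting its treatment difference against the mean over the other 5 times. No gene passed (limma, 0 of 14922, 0.0%, smallest adjusted p = 0.999), and 340 had an unadjusted p under 0.05 (2.28%). Toward a higher CT20 difference the smallest p belonged to Plk3, Snora73b, Lrg1, Anapc15-ps and Armc12. Snora73b, a small nucleolar RNA overlapping Gm17300, was at 3.53, 3.93, 4.05 and 4.48 in vehicle and 14.6, 11.8, 5.16 and 7.03 with D-alanine, without overlap and from 8 to 40 fragments per library. It differed by 1.0 ± 0.36 at CT20 and by -0.36 over the other times. Lrg1, an acute-phase glycoprotein gene, was at 3.42, 2.25, 3.96 and 2.597 against 2.999, 4.46, 6.33 and 4.33, with 0.43 at CT20 and -0.06 elsewhere. Anapc15-ps, a pseudogene that may share reads with its parent, had 3, 0, 4 and 5 fragments against 6, 5, 7 and 15.
In the other direction stood Dcps, Rbsn, Rbm14, Adgrl1 and Depdc1b. Dcps, the scavenger enzyme of mRNA cap breakdown, was at 8.98, 8.57, 13.3 and 13.3 in vehicle and 8.17, 6.52, 11.4 and 12.3 with D-alanine, a difference of -0.20 ± 0.09 against 0.19 elsewhere. Rbm14, an RNA-binding coactivator gene, differed by -0.28 against 0.15, and Depdc1b by -0.29 against 0.24.

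A group of 13 genes had been picked from these samples for the difference averaged over the 6 times, CT20 included, so its direction is not independent evidence. At CT20 9 of the 13 lay above 0 (63.3% of all genes did), and 5 had an unadjusted p under 0.05, all higher with D-alanine (2.01% of all genes), with 0 past the adjusted threshold. Ces1g, a carboxylesterase of lipid and drug esters, was at 2.65, 0.937, 1.78 and 4.37 in vehicle and 6.19, 2.49, 3.62 and 15.5 with D-alanine. The groups overlapped, D-alanine replicate 4 was the highest, and the difference was 1.04 ± 0.37 against 0.95 at the other times. Mdk, which encodes the growth factor midkine, was at 10.3, 8.31, 6.27 and 11.5 against 19.5, 10.7, 15.9 and 17.1, apart within each table. Its difference was 0.73 ± 0.23, and 0.54 at the other times.

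Adm2, the vasoactive peptide adrenomedullin 2, was at 1.39, 1.12, 0.796 and 1.04 in vehicle and 3.38, 1.68, 2.11 and 2.69 with D-alanine. All 4 D-alanine libraries were above all 4 vehicle libraries, at 0.72 ± 0.23 against 0.41 elsewhere. Cyp2a5, a drug-metabolising cytochrome P450, was at 27.9, 29.7, 47.9 and 49.4 against 82.6, 45.3, 41.7 and 77.6, with 1.06 in the first table and 0.22 in the second. Gc, the vitamin D-binding protein, was at 1.77, 3.01, 2.45 and 4.12 against 4.76, 2.86, 5.06 and 4.82. The immediate early genes Ier3 and Nr4a1 differed by 0.38 ± 0.28 and 0.37 ± 0.21, the complement protease C1ra by 0.23 ± 0.22 and the matrix proteoglycan Prelp by 0.12 ± 0.20. Below 0 lay Tmem52 (-0.38 ± 0.22), BC002163 (-0.17 ± 0.22), Rnf24 (-0.15 ± 0.30) and Eci3 (-0.07 ± 0.11). Rnf24, a RING finger gene at -0.64 over the other times, was at 17.5, 22.5, 20.5 and 13.2 in vehicle and 19.4, 22.4, 15.4 and 10.2 with D-alanine at CT20. The CT20 difference and that of the other times were apart at an unadjusted p under 0.05 for 0 of the 13. Of all genes 2.28% were, so 0 of 13 does not set this group apart.

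Transcripts of the mitochondrial genome took a smaller share of the summed FPKM with D-alanine within each table. In the first table the share was 40.9% and 42.6% in vehicle against 35.1% and 35.3% with D-alanine. In the second it was 19.5% and 21.7% against 18.5% and 16.2%. The tables differed more than the treatments. The mean difference was -4.88 percentage points, -6.52 in the first table and -3.24 in the second (exact two-sided permutation within tables, p = 0.0556, the smallest that its 36 arrangements can give). Without vehicle replicate 4 it was -4.35 and without D-alanine replicate 4 it was -4.30. At the other times it ranged from -6.14 at CT0 to 0.118 at CT4.

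**Figure D4:**
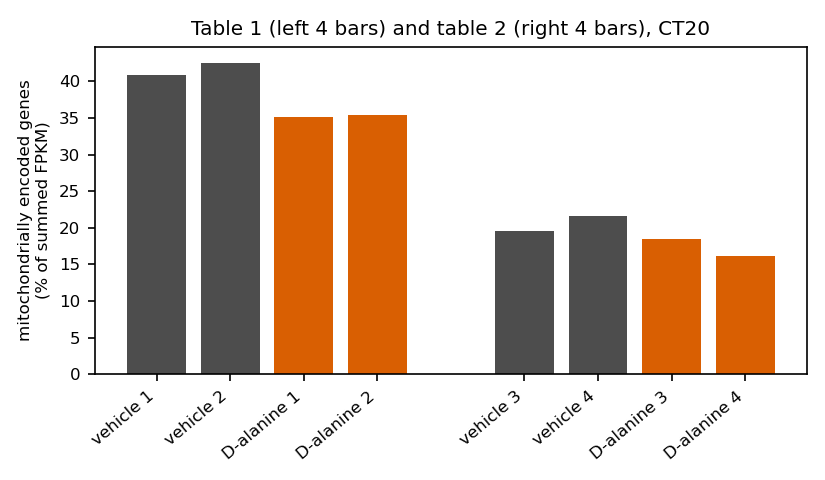
Share of summed FPKM from mitochondrially encoded genes in each CT20 library (percent; grey vehicle, orange D-alanine). Within each table both D-alanine libraries are below both vehicle libraries, and the second table lies below the first.

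Of the 13 mitochondrially encoded mRNAs 0 were called, 11 lay below 0, and the median was -0.28 against 0.0377 for all genes. Over the other 5 times the median of these mRNAs was -0.27. They make up most of the share given above, so their values are not separate from it or from each other. The number below 0 was 11 after TPM rescaling or median centring, 12 after rescaling without the mitochondrial genes, 9 after quantile normalization and 10 with voom. An unadjusted p under 0.05 was reached by 3, all lower (0.563% of all genes were lower at that p). mt-Nd5, a complex I subunit, was at 13602, 16152, 5954 and 5537 in vehicle and 12086, 11933, 4458 and 3619 with D-alanine, apart within each table at -0.41 ± 0.15. mt-Nd2, of the same complex, differed by -0.36 ± 0.15 and mt-Cytb, the cytochrome b of complex III, by -0.29 ± 0.12. For mt-Nd5 the unadjusted p (limma) was 0.0119 after TPM rescaling and 0.00895 with voom. It was 0.326 after quantile normalization, at a difference of -0.16, and 0.535 without the table term.

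The ATP synthase subunit mt-Atp8 was at 98.9, 89.9, 158 and 156 in vehicle and 50.4, 59.1, 85.1 and 87.96 with D-alanine, without overlap, at -0.82 ± 0.40. Its exon overlaps mt-Atp6, which differed by -0.34 ± 0.49. Above 0 were mt-Nd3, at 239, 124, 305 and 431 in vehicle and 645, 153, 1026 and 223 with D-alanine, and mt-Co3 (0.07 ± 0.43). Cytochrome oxidase subunits mt-Co1 and mt-Co2 differed by -0.23 ± 0.12 and -0.10 ± 0.41, and the complex I subunits mt-Nd1, mt-Nd4, mt-Nd4l and mt-Nd6 by -0.25 ± 0.13, -0.28 ± 0.15, -0.06 ± 0.69 and -0.31 ± 0.43. Of 20 nuclear genes of oxidative phosphorylation 11 lay above 0 (15 after TPM rescaling, 1 after rescaling without the mitochondrial genes). An unadjusted p under 0.05 was reached by 0 of these nuclear genes (2.57% of all genes). The smallest p among them were those of Ndufa9 (-0.07 ± 0.08), Cox5a (0.09 ± 0.11) and Uqcrc2 (-0.07 ± 0.09).

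None of the 19 core clock genes was called (0.0% of all genes were), and 0 had an unadjusted p under 0.05 (2.57% of all genes had). Of them 11 lay above 0, between -0.27 and 0.22 with a median of 0.07. Without the 2 libraries richest in inner medullary markers 8 lay above 0. Of the activators, Arntl was at 2.92, 3.44, 3.41 and 3.91 in vehicle and 2.78, 2.29, 3.502 and 3.75 with D-alanine, the treatments overlapping. It differed by -0.13 ± 0.15, Clock by -0.06 ± 0.11 and Npas2 by -0.03 ± 0.18.

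The repressors lay on both sides of 0. Per1 differed by 0.17 ± 0.20, Per2 by -0.10 ± 0.18, Per3 by 0.04 ± 0.18, Cry1 by 0.07 ± 0.21 and Cry2 by 0.15 ± 0.20. Ciart, Bhlhe40 and Bhlhe41, further repressors, differed by 0.22 ± 0.24, 0.22 ± 0.17 and -0.05 ± 0.12. Of the nuclear receptors, Nr1d1 (REV-ERB alpha) differed by -0.27 ± 0.33, Nr1d2 by 0.11 ± 0.20 and Rora by 0.09 ± 0.15. Of the D-box factors, Dbp differed by 0.11 ± 0.27, Tef by -0.02 ± 0.14, Hlf by 0.08 ± 0.17 and Nfil3, the repressor at the same sites, by -0.23 ± 0.26.

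The median of the clock genes was 0.12 in the first table and -0.07 in the second, and 12 of the 19 had opposite signs (63.2%, against 52.3% of all genes). Such disagreement was not particular to the clock. Over the pathway lists the share ran from 15.4% (genes picked for the mean over times) to 92.9% (endoplasmic reticulum chaperones, 13 of 14). Per2, a repressor of the loop, was at 12.2 and 14.9 in vehicle against 16.8 and 15.02 with D-alanine in the first table, and at 12.4 and 11.5 against 8.34 and 9.12 in the second. Its treatments were apart in both tables, in opposite directions. The same held for Per3, at 2.66 and 2.07 against 2.86 and 3.83, then 2.36 and 2.104 against 2.06 and 1.32. The nearest values were close, at 14.9 against 15.02 for Per2 in the first table and 2.104 against 2.06 for Per3 in the second. The share of all genes apart in opposite directions is not given here, so the pattern is a description only. The difference between tables had an unadjusted p under 0.05 for 3 of the 19 (3.91% of all genes), among them Per3 (0.0428, limma), and for 0 after adjustment.

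**Figure D5:**
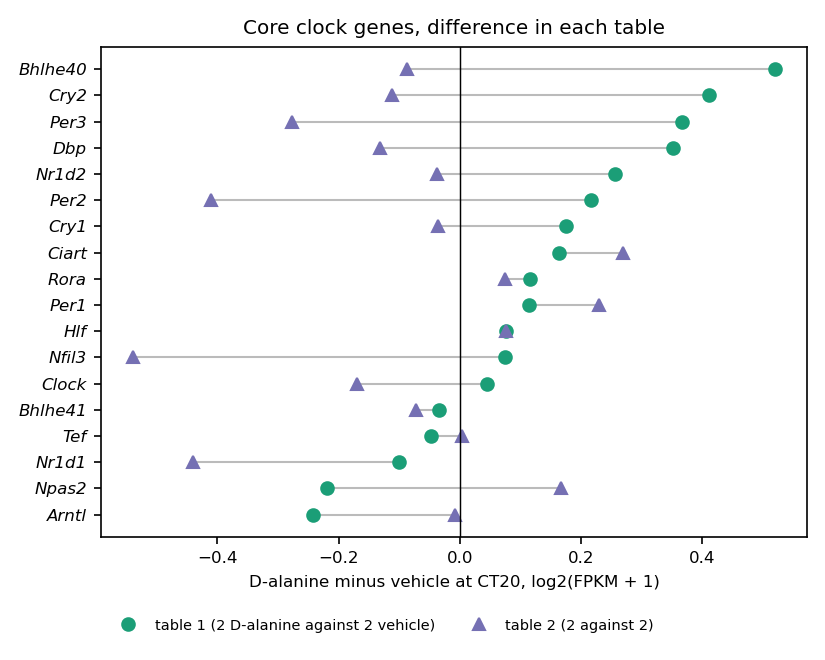
D-alanine minus vehicle at CT20 for 18 core clock genes, log2(FPKM + 1), computed in the first table (circles) and the second (triangles), with 2 libraries per treatment in each. Per2, Per3 and Bhlhe40 are among those above 0 in the first table and below 0 in the second.

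Upstream sequence was found for 16 of the 19 clock genes (RefSeq, GRCm38.p6, 250 bases). The E-box CACGTG, the site of CLOCK and ARNTL, is in 5 of the 16 (6.02% of all promoters), the D-box TTATGTAA in 1 (0.819%), the ROR core TAGGTCA in 1 (2.23%) and TGACG in 5 (17.8%), on either strand. For Per1, Npas2 and Tef the start used lies 3732, 541 and 252 bases from the start of the gene as deposited. Per1 and Tef are among the 5 with an E-box, and Per1 is among the 5 with TGACG. Ciart and Per3 are printed as an E-box and a D-box promoter, chosen after the values were seen, 5′ to 3′ along the gene with those matches in capitals. Ciart (chr3:95882229-95882478, minus strand) holds E-boxes 116, 58 and 44 bases before its start, and Per3 (chr4:151044666-151044915, minus strand) D-boxes 205 and 158 bases before its start.
Ciart: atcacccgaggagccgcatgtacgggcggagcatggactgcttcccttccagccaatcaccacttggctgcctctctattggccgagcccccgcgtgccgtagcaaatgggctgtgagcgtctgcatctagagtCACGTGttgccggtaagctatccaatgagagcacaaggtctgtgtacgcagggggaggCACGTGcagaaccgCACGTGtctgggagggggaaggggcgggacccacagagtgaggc
Per3: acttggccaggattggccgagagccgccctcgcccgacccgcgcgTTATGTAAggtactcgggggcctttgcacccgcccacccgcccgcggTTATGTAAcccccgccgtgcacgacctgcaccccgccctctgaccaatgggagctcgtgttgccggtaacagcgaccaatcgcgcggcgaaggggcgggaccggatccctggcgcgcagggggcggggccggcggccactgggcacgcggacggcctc
Ciart had the same sign in both tables, 0.16 and 0.27, and Per3 opposite signs, 0.37 and -0.28, neither past the test.

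Of 16 clock-controlled genes 12 lay above 0 (9 to 12 under the other scalings), with 0 called. Fkbp5, a glucocorticoid-inducible cochaperone, was at 11.5, 9.41, 17.1 and 8.47 in vehicle and 14.3, 14.01, 14.7 and 24.8 with D-alanine, a difference of 0.52 ± 0.22. Alas1, the first enzyme of heme synthesis, differed by 0.37 ± 0.26 and Por, the cytochrome P450 reductase, by 0.15 ± 0.11. Fkbp5 also belongs to 14 glucocorticoid response genes, of which 10 lay above 0 (7 to 10 under the other scalings) and 2, Fkbp5 and Zbtb16, had an unadjusted p under 0.05. The shares of all genes were 63.3% and 2.57%. Ddit4, a stress-induced mTORC1 inhibitor in that list, was at 8.92, 9.67, 11.1 and 9.47 against 8.905, 15, 13.2 and 17.8. D-alanine replicate 4 was the highest of the 8 for Fkbp5, Zbtb16 and Ddit4.

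Of the 20 gluconeogenesis enzymes 0 were called (0.0% of all genes were) and 0 had an unadjusted p under 0.05 (2.57% of all genes had). Above 0 lay 16, with a median of 0.05, but 7 after rescaling without the mitochondrial genes and 10 after quantile normalization, so the list has no direction that holds. Pck1, the cytosolic PEPCK that commits carbon to glucose, was at 427, 757, 1146 and 1006 in vehicle and 495, 479.6, 587 and 1308 with D-alanine. The groups overlapped, and the difference was -0.26 ± 0.25. G6pc, the phosphatase that releases glucose, was at 65.2, 136, 164 and 164 against 97.6, 56.5, 113 and 214, a difference of -0.21 ± 0.26. D-alanine replicate 4 was the highest of the 8 for both.

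Fbp2, a fructose bisphosphatase, had the smallest p of the enzymes, at 0.33 ± 0.19, and Fbp1, the main renal form, differed by -0.02 ± 0.14. The entry enzymes Pcx and Pck2 differed by 0.04 ± 0.14 and 0.09 ± 0.14, and the glucose 6-phosphate carrier Slc37a4 by 0.09 ± 0.15. The shared steps with glycolysis were at 0.09 ± 0.08 (Gpi1), 0.06 ± 0.07 (Tpi1), 0.05 ± 0.12 (Pgk1), 0.05 ± 0.20 (Pgam1), 0.12 ± 0.11 (Eno1) and 0.03 ± 0.31 (Gapdh, uncertain because many near-identical pseudogenes can take its reads). The shuttle enzymes Mdh1, Mdh2, Got1 and Got2 differed by -0.06 ± 0.11, 0.04 ± 0.08, 0.05 ± 0.10 and 0.09 ± 0.11, Ldhb, a lactate dehydrogenase, by 0.01 ± 0.12 and Gpt2, an alanine aminotransferase, by 0.18 ± 0.18. Of 20 gluconeogenic regulators 1 had an unadjusted p under 0.05, the deacetylase gene Sirt1, at 4.11, 3.07, 3.15 and 3.87 in vehicle and 4.53, 5.95, 3.702 and 3.97 with D-alanine. Sik1, a kinase that restrains CREB coactivators, differed by 0.31 ± 0.22 and Prkaca, the catalytic subunit of protein kinase A, by 0.08 ± 0.08.

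The genes that handle D-amino acids and alanine showed no difference past the test. Of 14 listed, 12 passed the filter on low values, and Agxt and Slc7a10 did not. Dao, D-amino acid oxidase itself, was at 95.98, 108, 157 and 132 in vehicle and 130.4, 99.97, 147 and 159 with D-alanine, overlapping, at 0.13 ± 0.12. Ddo, the oxidase of acidic D-amino acids, differed by 0.01 ± 0.15 and Srr, serine racemase, by 0.01 ± 0.10. The aminotransferases Gpt and Agxt2 differed by 0.16 ± 0.16 and -0.07 ± 0.15, and Shmt1, a serine hydroxymethyltransferase, by 0.06 ± 0.14. The carriers Slc5a12 and Slc5a8 (monocarboxylates) differed by 0.31 ± 0.34 and -0.09 ± 0.16, Slc1a4 and Slc1a5 (neutral amino acids) by 0.02 ± 0.14 and 0.01 ± 0.20, and Slc36a1 (proton-coupled) by 0.13 ± 0.25. In all 10 of the 12 lay above 0, but 5 did after rescaling without the mitochondrial genes.

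Among 12 tubular amino acid transport genes 2 did not overlap between treatments (0.771% of all genes did not), although neither had an unadjusted p under 0.05. Slc7a9, the light chain of the cystine transporter, was at 33.2, 29.5, 25.5 and 32.2 in vehicle and 42.95, 33.9, 34.8 and 37.5 with D-alanine. Slc7a7, of the basolateral cationic amino acid exporter, was at 15.1, 14.95, 14.2 and 15.7 against 21.7, 16.4, 16.03 and 23.2. Their differences were 0.30 ± 0.19 and 0.33 ± 0.23, and the aromatic amino acid carrier Slc16a10 differed by -0.13 ± 0.16.

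All 15 cytosolic ribosomal protein genes lay above 0, at 0.03 to 0.20, with 0 called; after rescaling without the mitochondrial genes 11 did, and after quantile normalization 14. Rpl10 was at 159, 146, 214 and 262 in vehicle and 186, 191, 258 and 232 with D-alanine and was the 1 with an unadjusted p under 0.05. Rplp0 and Rpl5 differed by 0.19 ± 0.10 and 0.20 ± 0.11. Ribosomal protein genes have many pseudogenes, and how shared reads were counted is not given.

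Of 13 amino acid stress genes 8 lay above 0, a share near that of all genes (63.3%), and 2, Adm2 and Sesn2, had an unadjusted p under 0.05 (2.57% of all genes). Sesn2, a stress-induced regulator of mTORC1, was at 8.65, 9.86, 11.7 and 14.2 in vehicle and 11.1, 11.4, 15.8 and 18.7 with D-alanine, apart within each table. Atf5, a transcription factor of the same response, differed by 0.38 ± 0.26. Of 14 heat shock and cold-inducible genes Rbm3, a cold-induced RNA-binding protein gene overlapping the antisense Rbm3os, had such a p, at 8.65, 8.84, 12.2 and 12.02 against 13.5, 10.8, 12.4 and 16.3. Cirbp, the related cold-inducible gene, differed by 0.23 ± 0.21 and the chaperone Dnajb1 by 0.21 ± 0.14. Of 16 xenobiotic metabolism genes Ces1g, Cyp2a5 and Gsta3 did, all higher with D-alanine (2.01% of all genes), and of 12 phosphate and vitamin D genes Gc did. Adm2, Ces1g, Cyp2a5 and Gc are among the 13 genes picked from these samples for the mean over times. The vitamin D hydroxylase Cyp24a1 differed by -0.61 ± 0.56 and the phosphate carrier Slc34a3 by 0.31 ± 0.25.

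Of 13 immediate early genes 0 had an unadjusted p under 0.05 (2.57% of all genes had). Myc came nearest, at 6.89, 3.43, 3.39 and 3.38 in vehicle and 2.18, 3.42, 2.95 and 1.59 with D-alanine, a difference of -0.56 ± 0.27. Vehicle replicate 1, with an inner medullary marker sum of 250, held the high value. D-alanine replicate 2, with a sum of 437, was at 3.42, and the part of the medulla was not tested. Of 13 matrix genes Nid2, a basement membrane nidogen, had an unadjusted p under 0.05, at 6.71, 7.66, 6.703 and 6.45 against 4.84, 4.42, 8.01 and 4.61, and Nid1 and Col1a1 differed by -0.18 ± 0.17 and 0.26 ± 0.23. Among marker genes Corin, a protease of natriuretic peptide processing, and Dcn, the fibroblast proteoglycan decorin, also reached that p, at -0.58 ± 0.24 and 0.63 ± 0.30; both were picked out after their values were seen.

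In 22 of the 33 lists no gene had an unadjusted p under 0.05, which 2.57% of all genes had. In oxidative stress (16 tested, median 0.10) Nqo1, a quinone reductase of the NRF2 response, was at 20.7, 20, 40.02 and 42.3 in vehicle and 33.7, 26.6, 37.9 and 40.7 with D-alanine, apart in the first table and overlapping in the second. Txnrd1 and Keap1 of that list differed by 0.16 ± 0.11 and 0.11 ± 0.07. In insulin signalling (15, median -0.01) Irs2 differed by -0.43 ± 0.36, Igfbp1 by -0.37 ± 0.33 and the insulin receptor Insr by 0.14 ± 0.09. In renin-angiotensin (7, median -0.09) Ren1, the renin gene, was at 46.3, 47.5, 56.05 and 70.8 against 44.6, 42.2, 52.4 and 38.4, apart within each table, and the peptidase Enpep and the receptor Agtr1a differed by -0.19 ± 0.13 and -0.13 ± 0.16.

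In water and salt transport (19, median -0.07) 4 genes lay above 0 (2 to 7 under the other scalings), with the sodium chloride regulator Wnk1 at -0.13 ± 0.10, the cotransporter Slc12a1 at -0.31 ± 0.29 and the potassium channel Kcnj1 at -0.14 ± 0.17. Markers of the thick ascending limb, where the last 2 act, were below 0 for 5 of 6 (median -0.32). Slc12a1 and Kcnj1 are themselves 2 of those 6 markers, so these values are not separate from the transport values. Thin limb markers were below 0 for 5 of 5 (median -0.58), and Aqp1 and Slc14a2 belong to both that list and the transport list. In the first table the thick ascending limb sum was 511 and 492 FPKM in vehicle against 265 and 353 with D-alanine, and in the second 1034 and 734 against 958 and 917. Thin limb sums overlapped, at 284, 230, 416 and 420 in vehicle and 182, 306, 441 and 378 with D-alanine. The thin limb median is the value of Corin, at 0.193 to 1.69 FPKM. Podocyte markers (6 of 6) and red blood cell markers (5 of 5) were also all below 0. In the second table alone, 4 of the 5 red blood cell markers and 4 of the 6 thick ascending limb markers lay above 0. Adipocyte (5 of 5), urothelium (5 of 5), B lymphocyte (4 of 4) and T and NK lymphocyte (3 of 3) markers were all above 0. The part of the limb segments in the transport values was not tested. In the inner medulla list (7, median -0.03) the urea transporter Slc14a2 was at 26.2, 3.38, 14.6 and 9.21 in vehicle and 1.29, 43.3, 11.9 and 0.676 with D-alanine. It was highest in the 2 libraries richest in inner medullary markers, and is itself among the markers summed there. The osmolyte carriers Slc5a3 and Slc6a6 differed by -0.30 ± 0.40 and 0.06 ± 0.15. In fatty acid oxidation (19, median 0.02) Cpt2 differed by 0.20 ± 0.13, Slc25a20 by 0.12 ± 0.11 and Eci1 by 0.11 ± 0.09.

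Among the smallest by p in the metabolic lists were Aldoa (0.13 ± 0.08), Pfkm (-0.14 ± 0.12) and Pdk1 (-0.10 ± 0.13) of glycolysis, Slc5a10 (0.18 ± 0.16), Slc2a8 (0.14 ± 0.14) and Slc2a2 (-0.17 ± 0.21) of glucose transport, and Hmgcs1 (-0.18 ± 0.14), Mvk (0.15 ± 0.15) and Srebf2 (0.08 ± 0.12) of cholesterol synthesis. In the stress lists they were Pdia6 (0.10 ± 0.12), Sdf2l1 (0.22 ± 0.28) and Creld2 (0.13 ± 0.20) of endoplasmic reticulum chaperones, Rsad2 (-0.33 ± 0.21) and Ifit3 (-0.40 ± 0.39) of the interferon response, and P4ha1 (0.16 ± 0.16), Ndrg1 (0.17 ± 0.18) and Vegfa (0.14 ± 0.16) of hypoxia. In the remaining lists they were Srf (0.21 ± 0.14), Ankrd1 (-0.44 ± 0.36) and Vasp (0.16 ± 0.13) of actin, Spp1 (-0.21 ± 0.20), Krt8 (0.14 ± 0.18) and Krt18 (0.42 ± 0.54) of tubular injury, Slc22a8 (0.31 ± 0.25) and Abcc4 (0.24 ± 0.43) of organic ion transport, and Rrm2 (0.33 ± 0.17), Mcm5 (0.16 ± 0.12) and Pcna (0.13 ± 0.18) of the cell cycle. The medians of these 10 lists ran from -0.02 to 0.13. For the 14 endoplasmic reticulum chaperones the median was 0.21 in the first table and -0.18 in the second. All 14 lay above 0 in the first and 1 in the second.

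Whether the treatment difference depended on the table was tested for every gene. None passed (limma, 0 of 14922, 0.0%, smallest adjusted p = 0.17), and 583 had an unadjusted p under 0.05 (3.91%). The smallest was that of Zfp511, a zinc finger gene picked after its values were seen, at 7.97 and 6.60 in vehicle against 13.1 and 10.8 with D-alanine in the first table, and at 8.97 and 9.32 against 7.39 and 6.79 in the second. Like Per2 and Per3, it was apart in both tables in opposite directions, a pattern whose share of all genes is not given here.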

How the data were processed

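The 8 CT20 libraries were taken from 2 tables of 24 libraries of kidney RNA, prepared with a SMARTER kit for mRNA according to the protocols in the labels. The authors deposited FPKM values for 49585 genes. The submitters' processing notes name mm10 (GRCm38) as the build. The sources used here do not give the aligner, the counter, strand or filters. Fragments were recovered from the steps of low FPKM values with GENCODE M21 exon lengths: 97.1% to 97.5% of values under 20 fragments in genes of a single transcript came out whole within 0.05 in the CT20 libraries, and 92.3% to 93.3% over all genes.

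Genes with FPKM of at least 1 in at least 4 of the 48 libraries were kept (14922). log2(FPKM + 1) was fitted with limma 3.58.1 in R 4.3.3, with a trended prior, as 12 groups plus the table over all 48 libraries, with Benjamini-Hochberg adjustment at 0.05. This scale understates changes of low genes. The FPKM scaling divides by each library's total, so abundant mitochondrial transcripts move all other values. Replicate pairs differed beyond sampling noise (chi-square per gene of at least 13.9). Replicate numbers follow sample order and pair nothing.

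Members, lists and tests were chosen with earlier results of these data known. Named were, in each direction, the 10 genes of smallest p (5 against the other times), every tested member of the clock, gluconeogenesis, D-amino acid and mitochondrial mRNA lists and of the genes picked for the mean over times, and up to 3 members of smallest p in each other list; 2 higher and 12 lower models known by identifier only were passed over, and a few list members are not reported here. The share of mitochondrial genes was tested by exact permutation within tables. Alternatives were a pseudocount of 0.1, no filter, TPM, rescaling without mitochondrial genes, quantile normalization, median centring, other table terms, CT20 alone, each table alone, robust moderation, voom on recovered fragments and leaving out each library. A covariate for inner medullary markers, and leaving out the 2 libraries with the highest sums of them, were chosen after the data were seen.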

Additional observations from a re-analysis of the deposited data

Results flagged for a closer look

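A library far from the other 3 of its group was looked for in 392 groups of 4 values, and 19 were marked (4.85%); chance marks about 1 in 20. Values are FPKM, and no explanation was tested.

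In D-alanine replicate 3 the marker sums were the highest of its group for macrophages and dendritic cells (502.1, next 208.3), T and NK lymphocytes (14.64, next 3.892) and B lymphocytes (221.9, next 16.44). The same library was highest for Col1a1 (7.559, next 2.685), Nid2 (8.01, next 4.839), Slc12a1 (196.7, next 95.32), Pck2 (8.526, next 6.245) and Mir5136 (1.159, the others at 0).

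D-alanine replicate 4 was highest for Pck1 (1308, next 586.6), Fkbp5 (24.81, next 14.68), Enpep (26.16, next 15.96) and Slc16a10 (6.807, next 3.498). D-alanine replicate 2 was highest for Ankrd1 (2.607, next 0.8624) and the skeletal muscle marker sum (0.6263, next 0.0522) and lowest for Gc (2.857, next 4.758). D-alanine replicate 1 was lowest for Srf (5.077, next 7.653) and Prelp (3.154, next 5.679).

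In vehicle, replicate 1 was highest for Myc (6.895, next 3.426) and lowest for Tmem37 (32.93, next 40.07).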

How the results depend on the processing

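No gene was called at CT20 in either direction under any of the 23 alternatives, nor for the CT20 difference against the other times or between the tables under theirs; the smallest adjusted p over the alternatives for the CT20 comparison was 0.103, without the filter, with 30193 genes tested. The number of genes at an unadjusted p under 0.05, 384 in the fit reported, ranged from 196 without a table term to 1331 without the filter, was 734 without D-alanine replicate 4, and was 562 without D-alanine replicate 3. It was 543 with the covariate for inner medullary markers. Every count of calls stayed at 0 when each library was left out in turn. The difference in mitochondrial share was -6.52 points with the first table alone, -3.24 points with the second alone, and -5.45 to -4.30 when each library was left out. Of the 20 genes named for the smallest p, 10 in each direction, 1, Mir8091, changed its sign or went to 0 under an alternative; of all 172 named genes 72 did so under at least 1 of 23. Depth limits the entries with few fragments, among them Snord70, Mir5136, Mir8091, Snora23 and Defb2. No paired analysis was possible because the replicate numbers follow sample order and tie no libraries together.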
